A study of Mus musculus with 12 samples.

Results

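KY-1 and KY-2 are mouse natural killer (NK) cell lines, both labelled p53KO, that is, lacking the tumour suppressor p53. They were compared here in their control state, after transduction with the control vector, which encodes green fluorescent protein (GFP) and nothing else. The samples were chosen by their labels: 3 arrays of KY-1 with GFP and 2 arrays of KY-2 with GFP, 5 of the 12 arrays of the study. Both lines were grown in complete RPMI medium with human interleukin-15 (IL-15) at 200 U/mL, and GFP-positive cells were sorted before total RNA was taken. The other 7 arrays, 4 of KY-1 and 3 of KY-2, came from cells given the vector GFP-P2A-FLAG-Myb, in which GFP and tagged Myb are made from the same transcript, and serve below as separate samples of the same lines. The study asked what raised Myb does to NK cells, in work on microRNA-15/16, so the comparison of the GFP groups describes the starting state of its 2 model lines.

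Each group is a single line. The labels give no strain, sex, tissue of origin or number of clones, so any such property of a line cannot be told apart from the line itself. Nothing in the labels says that the arrays of a group came from separate cultures, so the spread behind each p-value is that between arrays and may be technical. Arrays 1 and 2 of KY-1 with GFP lay much closer together than other arrays of a group, with a robust SD of their log2 differences of 0.0434 to 0.0469 for such close pairs against 0.102 to 0.172 for the others, and were averaged into 1 replicate. This left n = 2 replicates for each GFP group. Values are log2 levels per gene for 19938 genes, with array medians from 5.33 to 5.42. Precision is limited by how few arrays there are. As a yardstick for low signal, the 95th percentile of 1027 olfactory receptor genes, which NK cells are not known to use, was 5.11 in KY-1 and 5.07 in KY-2. A level below it is called dim, and a difference against a dim level is compressed by background signal on the array.

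NK cells, a kind of innate lymphocyte, kill infected or transformed cells with perforin and granzymes and secrete interferon-gamma and chemokines. Their lineage rests on the transcription factors Nfil3, Id2, Tbx21 (T-bet) and Eomes, and IL-15, acting through the receptor chains Il2rb and Il2rg and the factor STAT5, keeps them alive. Their activity is set by activating and inhibitory receptors, many of them lectin-like proteins encoded side by side in the NK gene complex. T cells share the killing machinery but recognise targets through a T cell receptor carried by the CD3 chains.

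The lines differed widely. KY-2 was higher than KY-1 for 2718 of 19938 genes (13.6%) and lower for 3039 (15.2%), so that 5757 genes (28.9%) passed limma's test at an adjusted p under 0.05. With each array centred on its own median the split was 3081 higher and 2218 lower, 58.1% of calls higher against 47.2% in the deposited scaling, so the balance between directions depends on the scaling. Most differences were small, with a median size of 0.56 on the log2 scale among the genes called and 0.19 among all genes. At least 2-fold differences were called for 650 genes (3.26%) higher and 422 (2.12%) lower. At 4-fold or more, 187 genes were higher and 108 lower in KY-2, and at 16-fold or more 27 were higher and 13 lower. Among the 12002 genes above low signal in at least 1 line, 42.8% were called, 20.9% higher and 21.9% lower, and the counts in gene lists below are read against these shares. Of genes above low signal in 1 line alone, 651 were so in KY-2 and 394 in KY-1. The 1027 olfactory receptor genes behind the yardstick were themselves called in 103 cases (10%), 16 higher and 87 lower in KY-2. Their median difference was -0.12, so genes not expected in these cells leaned lower in KY-2. The levels on the GFP arrays of the lines did not overlap for 57.4% of all genes and for 5751 of the 5757 called genes.

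**Figure D1:**
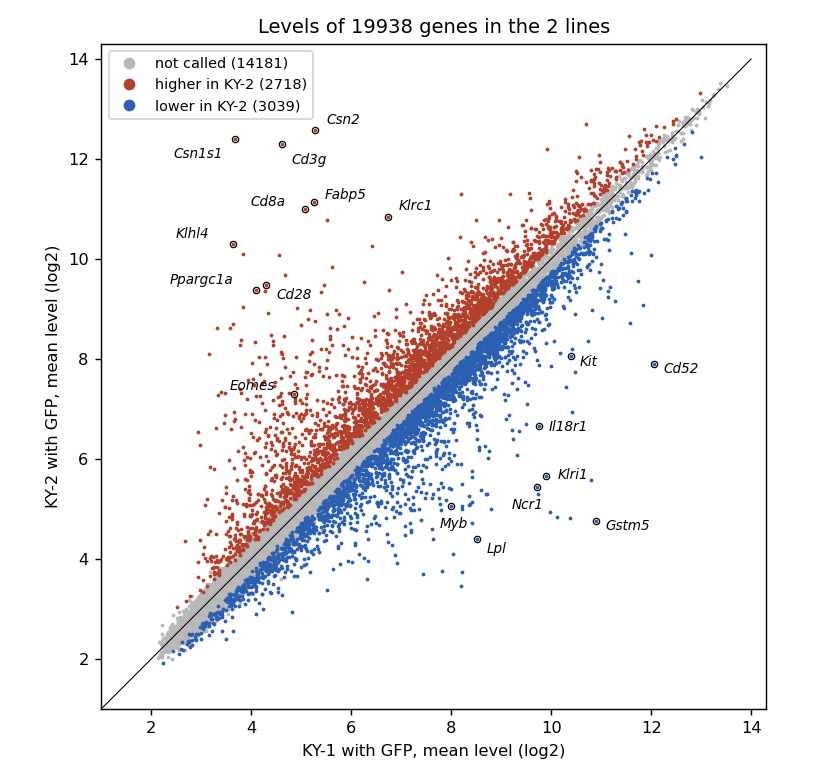
Mean log2 level of each of 19938 genes in KY-1 (x axis) and KY-2 (y axis) with the GFP vector, over n = 2 replicates each; each point is a gene, coloured by limma's call, and the line marks equal levels. Csn1s1 and Csn2, Cd3g and Cd8a lie far above the line, and Gstm5, Ncr1 and Klri1 far below it.

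Milk protein genes were among the largest differences, with Csn1s1 first of all genes. Csn1s1, which encodes alpha-S1-casein, was at 3.84, 3.92 and 3.46 on the KY-1 arrays and at 12.36 and 12.45 on the KY-2 arrays. All 3 KY-1 arrays were dim and both KY-2 arrays bright, a difference of 8.74 ± 0.14 (SE, n = 2 against 2; 426-fold, limma adjusted p = 2.403e-11). Csn2, which encodes beta-casein, stood at 5.25, 5.30 and 5.29 in KY-1 and at 12.60 and 12.58 in KY-2, 158-fold higher (7.31 ± 0.10, SE, n = 2 against 2). Their neighbours Csn1s2a (3.86, 3.84 and 3.73 against 8.36 and 8.38) and Csn3 (5.53, 5.57 and 5.59 against 8.41 and 8.38) were higher too, by 4.58 and 2.82, while Csn1s2b was dim in both lines. With the Myb vector the line difference was 8.86 for Csn1s1, 7.04 for Csn2 and 5.32 for Csn1s2a, but -0.11 for Csn3.

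In the mammary gland casein genes are switched on by prolactin through STAT5, the factor that IL-15 also activates in NK cells. STAT factors bind a palindrome with the core TTCNNNGAA. The stretches of 150 bases just before the gene starts are shown because both hold this core (RefSeq, GRCm38.p6, 5′ to 3′ on the gene's strand, with the core in capitals). The Csn1s1 stretch is chr5:87666058-87666207 on the plus strand, with the core beginning at position -100 from the gene start, and the Csn2 stretch is chr5:87699426-87699575 on the minus strand, with the core at -93.
Csn1s1: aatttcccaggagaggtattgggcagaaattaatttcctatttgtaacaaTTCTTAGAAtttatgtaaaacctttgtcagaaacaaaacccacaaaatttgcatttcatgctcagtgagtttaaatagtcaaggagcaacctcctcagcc
Csn2: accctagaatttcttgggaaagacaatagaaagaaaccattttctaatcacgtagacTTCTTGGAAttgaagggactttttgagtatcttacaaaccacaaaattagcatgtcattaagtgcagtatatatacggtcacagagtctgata
The core reads the same on both strands. It was found in 2726 of 32851 promoter windows of 300 bases (8.3%), and in all 3 casein windows in the table, those of Csn1s1, Csn2 and Csn1s2a. In Csn1s2a the only match begins at position 21, after the gene start, and none lies before it. A match describes these letters and was not tested as a binding site. Among the STAT5 pathway genes listed, 7 of 19 were higher in KY-2 and 4 lower, with a median of 0.05 and a range from -0.66 to 1.54. The higher ones included Osm, the cytokine oncostatin M (1.54), and the kinase gene Pim2 (0.86). Activity of the pathway was not tested. Stat5a was higher by 0.36, a call lost without array 3 of KY-1 (0.295).

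Several other genes at the top of the ranking were dim, or just above low signal, in KY-1 and bright in KY-2. They included Klhl4, a kelch family gene (3.64 against 10.31), Fabp5, a fatty acid binding protein (5.25 against 11.13), Lcn2, the iron-siderophore carrier lipocalin-2 (4.56 against 10.08), and Calu, the reticulum protein calumenin (3.32 against 8.62). The tetraspanin genes Tspan13 and Cd63 were higher by 5.27 and 5.21, and Timp3, a protease inhibitor of the matrix, by 5.08. Sema3a, a guidance factor of axons, was higher by 5.06. At the other end, Gstm5, a glutathione transferase, was at 10.87, 10.92 and 10.90 in KY-1 and 5.01 and 4.51 in KY-2, a fall of 70.4-fold (-6.14 ± 0.20, SE, n = 2 against 2). Eps8l3 (-5.57), the adaptor gene Pram1 (-5.21), Dkkl1 (-5.04), the piRNA pathway gene Tdrkh (-4.73), the peroxidase gene Prdx4 (-4.47) and Tacr1, the substance P receptor (-4.43), were bright in KY-1 and near or below low signal in KY-2. Cd52, a small surface glycoprotein of lymphocytes, went from 12.06 to 7.90. Rbm44 (-4.04), Cadps2 (-3.74), the phosphatase gene Dusp4 (-3.70) and Capg, an actin capping protein (-3.47), completed the 15 lowest. For the 30 genes named by size the arrays of the lines did not overlap and the adjusted p of limma was at most 2.729e-08. Both follow from choosing the largest differences among genes called on these same arrays. On the separate arrays with the Myb vector all 30 were called in the same direction.

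NK identity genes were mostly above low signal in both lines. Of 20 NK identity genes, all 20 were above low signal in KY-2 and 19 in KY-1, with 6 higher and 7 lower in KY-2. The share called, 65%, was above the 42.8% of all genes above low signal, so single members differed often. The differences went both ways, with a median of 0.004 against -0.039 for all genes. The summed linear level of the list, as log2, was 15.15 to 15.20 on the KY-1 arrays and 15.13 to 15.17 on the KY-2 arrays. The brightest genes weigh most in such a sum, and the list includes killing genes that T cells share. Gzmb, Nkg7, Fcer1g and Fcgr3 had differences of 0.10, 0.025, -0.23 and 0.11 and were not called. Klrb1c, which encodes NK1.1, was at 9.67, 9.62 and 9.58 against 9.41 and 9.34, a small difference (-0.24; limma adjusted p = 0.0492) whose call was lost under 14 of 21 alternative settings.

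The largest difference in this list was that of Ncr1, which encodes NKp46, the receptor most closely tied to NK cells. It was at 9.78, 9.77 and 9.67 on the KY-1 arrays and at 5.79 and 5.08 on the KY-2 arrays. KY-2 thus lay 19.5-fold lower (-4.29 ± 0.19, SE, n = 2 against 2; limma adjusted p = 2.512e-08), both arrays within 1 log2 unit of low signal. Eomes, a T-box factor of mature NK cells, ran the other way: it was at 4.92, 5.07 and 4.73 in KY-1, all dim, and at 7.42 and 7.18 in KY-2 (2.44 ± 0.12). Its relative Tbx21 was lower in KY-2 (8.60 to 7.98, -0.62), and Nfil3 (8.72 and 8.705) was not called. Prf1, the pore protein perforin, was 4.79-fold higher in KY-2 (8.24, 8.21 and 8.12 against 10.49 and 10.37).

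KY-2 also carried a small set of T cell genes. Cd3g, a chain of the CD3 complex, was at 5.27, 4.90 and 4.16 in KY-1 and at 12.33 and 12.27 in KY-2, 205-fold higher (7.68 ± 0.23, SE, n = 2 against 2; limma adjusted p = 1.665e-09). Cd8a was at 5.02, 5.26 and 4.99 against 11.12 and 10.87 (5.93 ± 0.11), and the costimulatory receptor gene Cd28 at 4.43, 4.31 and 4.21 against 9.49 and 9.47 (5.19 ± 0.12). Cd3d was higher by 1.39. The rest of the list did not follow: Cd3e was lower in KY-2 (6.22 to 5.32, -0.90), the kinase gene Zap70 was lower (-0.81), and Cd8b1, Cd4, Cd5, Cd2 and Trat1 were dim in both lines. Of 17 T cell genes measured, 5 were higher and 2 lower, with 6 dim in both lines and a median difference of 0.13. Trgv1, a variable segment of the T cell receptor gamma chain, was at 4.04, 3.94 and 3.70 against 10.06 and 10.16 (6.27 ± 0.11), while the constant regions of the receptor were not analysed here. The summed linear level of the T cell list, as log2, rose from between 10.37 and 10.41 to between 13.07 and 13.16, most of it from Cd3g, Cd8a and Cd28. In bulk RNA a few cells with a high level and many cells with a lower level cannot be told apart.

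Markers of myeloid, B and mast cells were mostly dim in both lines. Of 21 myeloid genes 17 were dim in both lines, Csf1r, Lyz2, Mpo and S100a8 among them, and 3 were lower in KY-2, with Fcgr1, an Fc receptor, as the largest (7.28 to 5.85). Of 16 B cell genes 10 were dim in both lines, including Ms4a1 and Pax5, and Cd72 was lower in KY-2 (-2.07). Of 18 mast cell and basophil genes 13 were dim in both lines, and 5 were lower in KY-2, 4 of them by at least 2-fold, and 1 higher. Kit, also a marker of immature NK cells, was lower in KY-2 (10.33, 10.29 and 10.47 against 8.22 and 7.92). Hpgds, which makes prostaglandin D2, was higher (2.34). Of 12 erythroid and megakaryocyte genes only 5 were dim in both lines. The 2 called, Gata1 and Tspan8, were higher by less than 0.6. Both calls were lost without some single replicates (Gata1 0.388 and Tspan8 0.483 without array 1 of KY-2). Of the 10 sex-linked genes measured none passed limma's test at an adjusted p under 0.05. Xist, the RNA of the inactive X chromosome, was dim in both lines, and the Y-linked genes Eif2s3y, Kdm5d and Uty lay at like levels above low signal in both (8.69 and 8.63, 7.78 and 7.75, and 6.76 and 6.55).

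**Figure D2:**
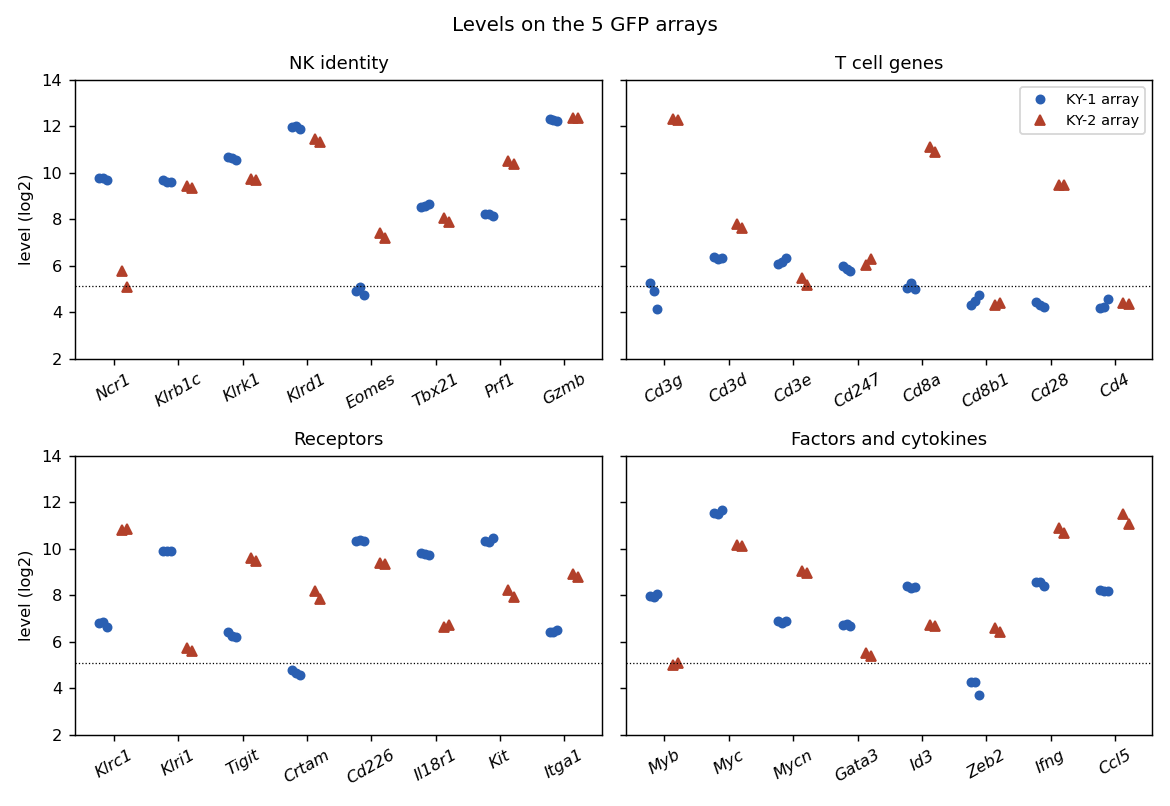
Log2 level of 32 genes on each of the 3 KY-1 arrays (circles) and 2 KY-2 arrays (triangles) with the GFP vector; the dotted line marks low signal in KY-1. Cd3g, Cd8a and Cd28 are near or below the line in KY-1 and between 9.47 and 12.33 in KY-2, while Ncr1, Klri1 and Il18r1 show the opposite order.

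Genes of NK maturation gave no single order of the lines. Among 18 genes of immature NK cells, 7 were higher and 8 lower in KY-2, and among 19 genes of mature NK cells 5 were higher and 3 lower. The shares called were 83.3% and 42.1%, against 42.8% of all genes above low signal, so the mature list was near the background. By at least 2-fold, 4 immature genes were higher and 4 lower (median 0.044), and 3 mature genes were higher and 1 lower (median 0.015). The summed linear level, as log2, was 14.40 in KY-1 and 14.63 in KY-2 for the immature list. For the mature list it was 13.58 and 14.11. Of the immature markers, Kit, the chemokine receptor gene Cxcr6 (10.74 to 8.36), the lymphotoxin gene Ltb (8.41 to 5.77) and Id3 (8.36 to 6.71) were lower in KY-2, while the chemokine gene Xcl1 was higher (10.69 to 12.70). Of the mature markers, Zeb2, a repressor needed late in NK maturation, was dim in KY-1 (3.98) and at 6.52 in KY-2, and Serpinb9b, a granzyme inhibitor, was higher by 2.59. Spn, which encodes CD43, was lower, at 6.07 against 9.33. Itgam (CD11b), Cd27, Il7r and Klrg1, the surface proteins by which NK stages are usually sorted, were dim in both lines, and the calls of Cd27 (-0.39) and Klrg1 (0.63) were lost without some single replicates (-0.322 for Cd27 without array 2 of KY-2 and 0.543 for Klrg1 without array 1). Among genes of type 1 innate lymphoid cells and tissue residence, 4 of 15 were higher and 4 lower, with Itga1 (CD49a) higher by 2.40 and Tmem176a (-1.84) and Tmem176b (-1.55) lower. Itga2 (CD49b), a marker of conventional NK cells, was higher as well (5.83 to 7.10). Of 14 genes of type 2 innate lymphoid cells 3 were lower and 2 higher in KY-2, with 7 dim in both lines. The share called, 35.7%, was below the 42.8% of all genes above low signal. Rora (-1.77), the costimulatory receptor gene Icos (-1.52) and Gata3 (-1.26) were the lower ones, and no member was higher by 2-fold.

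Lectin-like receptors of the NK gene complex differed between the lines to an extent that varied by family. Of 17 genes of the NKG2, CD94 and related group, 11 were lower and 4 higher in KY-2 (88.2% called, against 42.8% of all genes above low signal), with a median difference of -0.53. Klri1, which pairs with Klre1, was at 9.91, 9.91 and 9.90 in KY-1 and at 5.72 and 5.61 in KY-2 (-4.24 ± 0.14). Klrc1, the inhibitory NKG2A chain, was the exception in the other direction, at 6.73 against 10.83 (4.10 ± 0.13), whereas its near relatives Klrc2 (-1.08) and Klrc3 (-2.29) were lower. The call of Klrc2 was lost without array 2 of KY-2 (-0.668) and without arrays 1 and 2 of KY-1 (-0.934). Klrk1 (NKG2D; -0.91) and Klrd1 (CD94, the partner of the NKG2 chains; -0.56) were lower. Clec12a (-2.13) and Clec1b (-2.725) were lower. Probe sets can read near-identical members of these families, so the values of Klrc, Klri and Klrb1 genes are uncertain as to the member. Of the Klrb1 and Clec2 genes, Klrb1a was higher by 3.37 and Clec2i, which encodes a ligand of a Klrb1 receptor, was lower (-3.28). Of 12 Klrb1 and Clec2 genes 41.7% were called, and of 6 Ly49 genes 33.3%, with 5 of the 6 dim in both lines.

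Of 7 genes of the nectin receptor group, 4 were higher in KY-2 and 1 lower, with a median of 0.59 with GFP and 0.11 with the Myb vector (20.9% and 21.9% of genes above low signal were higher and lower). Tigit, an inhibitory receptor, was at 6.25 in KY-1 and 9.54 in KY-2, and Crtam, an adhesion receptor of activated cytotoxic cells, was dim in KY-1 (4.64) and at 8.02 in KY-2. Cd96 was higher by 0.91. Cd226 (DNAM-1), the activating receptor that competes with TIGIT for the ligand PVR, was lower, at 10.35, 10.37 and 10.35 against 9.39 and 9.33 (-0.998). Among 23 checkpoint and costimulatory genes 9 were higher and 5 lower, with Havcr2 (TIM-3) at 4.55 and 6.36 and Lair1 at 5.77 and 4.815. Among genes of signalling by activating receptors, 5 of 19 were higher and 7 lower. Vav1, an exchange factor, was lower (-0.72), and Lcp2 (SLP-76) was higher by 0.66.

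Of 11 genes of the IL-1 and IL-12 receptor axis 5 were lower and 2 higher, and of 22 common gamma chain and related receptors 8 were lower and 4 higher. Il18r1, the ligand-binding chain of the IL-18 receptor, was at 9.81, 9.78 and 9.72 in KY-1 and at 6.62 and 6.71 in KY-2, 8.55-fold lower (-3.10 ± 0.10, SE, n = 2 against 2; limma adjusted p = 2.682e-09). Il12rb1 (-1.02), Il1r2, a decoy receptor of IL-1 (-1.95), and Il18bp, which neutralises IL-18 (-1.06), were lower. Il12rb2 (11.17 and 11.23) was not called. Il2rb, the chain that carries the IL-15 signal, was lower (-0.40) and Il2ra higher (0.32), while Il15ra differed by 0.18 and was not called. The call of Il2rb was lost without array 2 of KY-2 (-0.367) and without array 3 of KY-1 (-0.31). That of Il2ra was lost without array 1 (0.283) or array 2 (0.358) of KY-2 and without arrays 1 and 2 of KY-1 (0.27). Both chains of the interferon-gamma receptor, Ifngr1 (9.37 to 7.90) and Ifngr2 (7.04 to 5.58), and the TGF-beta receptor gene Tgfbr1 (8.05 to 6.60) were lower in KY-2. Of 23 chemokine and S1P receptors 6 were lower and 1 higher, and the 30.4% called was below the 42.8% of all genes above low signal. Cxcr6, the oxysterol receptor gene Gpr183 (-2.54), Ccr6 and Cxcr3 (-0.75) fell, and Cxcr4 was the gene that rose (0.93). Of 25 adhesion genes 11 were lower and 4 higher (60% called, against 42.8% of genes above low signal), with the integrin chains Itga4 (7.78 to 5.09) and Itga5 (7.30 to 5.35) and Cd44 (7.67 to 6.30) among them.

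Effector molecules split by kind. Ifng was at 8.55, 8.59 and 8.42 in KY-1 and at 10.88 and 10.66 in KY-2, 4.84-fold higher (2.28 ± 0.10), and chemokines that NK cells release were higher along with it. Ccl5 went from 8.19 to 11.30, Ccl3 from 9.91 to 12.19, Ccl4 rose by 1.57 and Ccl1 went from dim (4.87) to 7.22, so that 6 of 14 chemokine genes were higher. The interferon-induced chemokines Cxcl9 (6.86 to 4.83) and Cxcl10 (8.47 to 7.49) were the 2 that were lower. Ligands of the tumour necrosis factor family went the other way. Ltb and Lta (11.04 to 9.57), Tnf (9.91 to 8.80) and Fasl (8.84 to 8.26) were lower in KY-2, as were the receptor gene Ltbr and the adaptor gene Fadd, and of 14 death ligand and receptor genes 8 were lower and 2 higher (71.4% called, against 42.8% of genes above low signal; median -0.51). Of the 2 that were higher, Tnfsf10 (TRAIL) differed by 0.46, a call lost without any of the 4 GFP replicates in turn (0.396 to 0.533), and Fas, at 3.55 and 5.02, was dim in both lines. Among 24 granule genes 6 were higher and 5 lower. Gzma was 1.67-fold higher, Gzmb and Gzmc were not called, and Gzmd was lower (9.10 to 6.80). Rab27a and Unc13d, which bring granules to the membrane and prime their release, were lower (-1.22 and -1.47).

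Of 24 interferon-stimulated genes 10 were lower in KY-2 and 4 higher, where 21.9% and 20.9% of genes above low signal were. Oasl2 fell by 2.30 and Bst2 by 0.86. The membrane proteins Ifitm1 and Ifitm2, which restrict virus entry, moved apart: Ifitm1 was higher (7.97 to 9.83) and Ifitm2 lower (11.83 to 9.08). Mx1 was higher by 1.23, from a dim level of 3.95 in KY-1 to 5.18 in KY-2. The factors Irf1, Irf7 and Irf9 were lower (-0.62, -0.86 and -0.58).

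Among transcription factors, Myb itself differed. Myb, a factor of blood progenitors and the gene the study raised, was at 7.96, 7.92 and 8.04 in KY-1 with GFP and at 5.002 and 5.104 in KY-2 with GFP, around low signal. KY-2 was 7.65-fold lower (-2.94 ± 0.09, SE, n = 2 against 2; limma adjusted p = 1.558e-09), so the starting level of the factor differed between the model lines. With the Myb vector the gene stood at 9.57 in KY-1 and 9.74 in KY-2, a difference of 0.17 that was not called (limma adjusted p = 0.094). Members of the MYC family changed in opposite directions: Myc was lower in KY-2 (11.54, 11.51 and 11.67 against 10.15 and 10.10, -1.47) and Mycn was higher (6.89 to 8.99, 2.10). Of the 29 NK lineage factors 8 were higher and 7 lower. Beside Eomes, Zeb2 and Id2 (11.14 to 11.83), Zbtb32, which NK cells need for their proliferative burst in viral infection, was higher by 1.38. Id3, Rora and Gata3 were lower, and Ets1, which supports NK development, went from 8.49 to 7.30. Runx1 went from 7.48 to 5.22.

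In the Ikaros family, Ikzf1 and Ikzf2 were higher by 1.01 and 0.99, Ikzf4 lower (-0.55), and Ikzf3 (9.23 and 8.95) was not called. The activation factors Egr1 (5.31 to 6.91), Egr2 (6.29 to 7.62) and Jun (6.66 to 7.92) were higher in KY-2, in a group where 7 of 23 were higher and 6 lower. Rel, an NF-kB subunit of activated lymphocytes, was higher by 1.003 and Nfatc2 lower (-0.93). Of 20 ETS factors 5 were lower and 4 higher, with Etv4 (-1.34) and Elk3 (0.85) at the ends. Among progenitor genes, Meis1, a homeobox factor of stem cells, was higher by 1.20.

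The cell cycle genes showed small shifts and 1 large exception. Ccnd1, which encodes cyclin D1, was near low signal in KY-1 (5.17) and at 8.98 in KY-2 (3.81 ± 0.21), while Ccnd3, the D cyclin of lymphocytes, was lower (10.34 to 9.24). The INK4 genes were above low signal in both lines: Cdkn2a was at 8.70, 8.70 and 8.83 against 9.72 and 9.58 (0.89), and Cdkn2b was not called (0.20). Of 25 DNA replication genes 12 were lower and 4 higher, with a median of -0.24 with GFP and -0.14 with the Myb vector. Of 23 mitosis genes 10 were lower and 4 higher, with medians of -0.12 and -0.019. Of all genes above low signal 21.9% were lower. No gene of either list differed by 2-fold. Tyms (-0.71), Cdc6 (-0.80), Cenpf (-0.60) and Mki67 (-0.58) were lower, and Rrm2 (0.87) and Kif23 (0.77) were higher. Of 21 measured targets of p53, 5 were higher and 2 lower (33.3% called, against 28.9% of all genes and 42.8% of those above low signal), a share near the background. Ccng1 (0.91), Pmaip1 (1.68) and Mdm2 (0.61) were among the higher ones. Trp53 itself was not analysed here. In the Bcl2 family, Bik, a death-promoting member, was lower (-2.34).

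Genes of mitochondrial energy metabolism were higher in KY-2 as a group. Ppargc1a encodes PGC-1alpha, the coactivator that raises mitochondrial gene expression, and was at 4.003, 4.215 and 4.093 in KY-1, dim on all 3 arrays, and at 9.48 and 9.29 in KY-2 (38.9-fold; 5.28 ± 0.14, SE, n = 2 against 2; limma adjusted p = 6.542e-10). Its partner Esrra was higher by 0.51, a call lost without arrays 1 and 2 of KY-1 (0.42). Of 21 genes of the tricarboxylic acid cycle and pyruvate entry, 14 were higher and 0 lower, with a median of 0.38. Ogdh (8.35 to 9.95), Mdh1 (10.55 to 12.04), Dld (9.91 to 11.10) and Idh3a (8.78 to 9.95) led it, together with Pcx, the enzyme that makes oxaloacetate from pyruvate (7.62 to 8.90).

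Complex I, the NADH dehydrogenase of the respiratory chain, had 14 of 35 genes higher and 0 lower (median 0.23). Its catalytic subunits Ndufs8 (9.58 to 11.21), Ndufv1 (9.42 to 10.68) and Ndufs7 (9.27 to 10.25) were furthest apart. Complexes II to V had 22 of 36 higher and 0 lower (median 0.34), including Atp5d of ATP synthase (0.95), Cox8a of cytochrome oxidase (0.90), Sdhd of succinate dehydrogenase (0.87) and Uqcr10 and Uqcr11 of the cytochrome bc1 complex (0.75 each). Taken as 90 different genes, 48 (53.3%) were higher and 0 lower by limma's test at an adjusted p under 0.05, against 20.9% and 21.9% of all genes above low signal. A difference above 0 was seen for 77 of the 90. The median difference was 0.30 with GFP and 0.24 on the separate arrays with the Myb vector. Over the alternative settings, 37 to 61 of them were called higher and 0 to 3 lower.

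Position in the genome moved with this pattern, and its part in the result was not tested. On chromosomes 10, 11, 16, 19 and X, chosen after their values were seen and where 39.2% of all genes above low signal were higher in KY-2, 21 of 24 energy genes were higher (87.5%). On the remaining chromosomes 27 of 66 were higher (40.9%), against 15.4% of all other genes above low signal. With chromosome 3 added to the first group, the shares were 88.5% of 26 energy genes against 37.9% of all, and 39.1% of the other 64 against 14.4%. The sequence AAGGTCA, a core bound by estrogen-related receptors such as Esrra, lay on either strand in 8 of the 90 promoter windows found for 78 of these genes (8.89%) and in 4.72% of all windows. Most of the windows thus held no match. Neither binding nor a part of Esrra or Ppargc1a in the line difference was tested.

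Fatty acid genes differed more in size. Of 26 measured, 15 were higher and 3 lower in KY-2 (median 0.41). Fabp5 was at 5.27, 5.37 and 5.17 in KY-1 and at 11.08 and 11.19 in KY-2. Cd36, which takes up fatty acids, was at 3.40, 3.58 and 3.29 against 7.40 and 7.26 (15.3-fold), and Fads2, a desaturase, went from 5.39 to 8.20. Cpt1a, which admits fatty acids to mitochondria (6.07 to 7.09), and Acadvl, an enzyme of beta-oxidation (7.79 to 9.19), were higher as well. Lpl, the lipase that releases fatty acids from lipoproteins, was the large exception, at 8.53, 8.46 and 8.55 against 4.64 and 4.17 (-4.12). Ppara and Pparg, the nuclear receptors that respond to fatty acids, were dim in both lines.

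**Figure D3:**
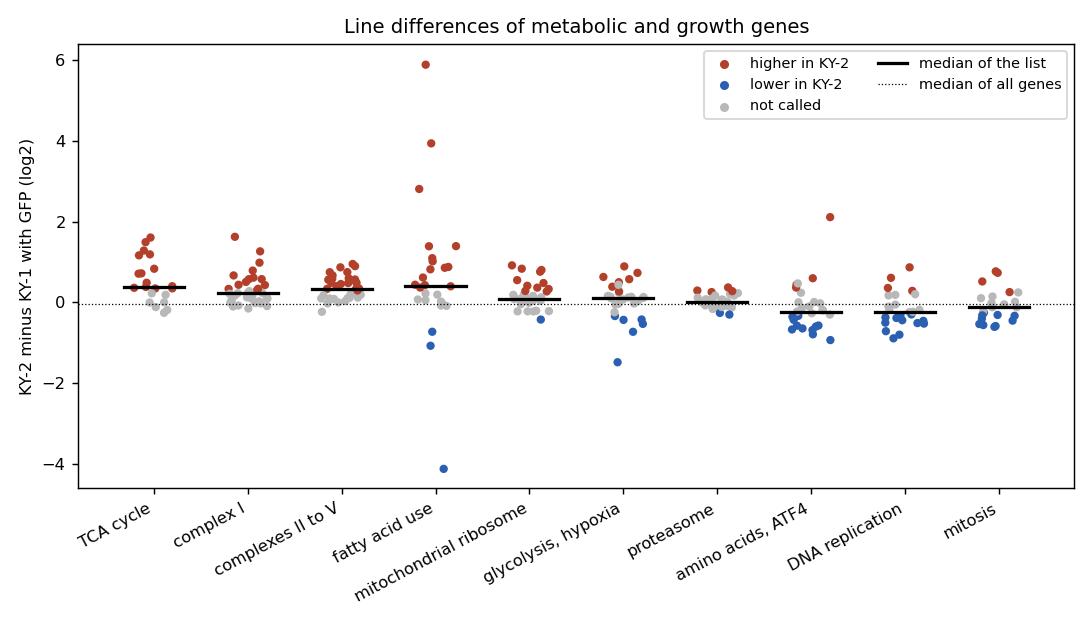
Line difference (KY-2 minus KY-1 with GFP, log2) of each measured gene in 10 lists, coloured by limma's call, with the median of the list (bar) and of all genes (dotted line). The tricarboxylic acid cycle and respiratory lists hold genes called higher and none called lower, while calls in the amino acid, DNA replication and mitosis lists are mostly lower.

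Glycolysis showed no common direction, with 7 of 28 genes higher and 6 lower. Several genes that set glucose use were lower in KY-2: the transporter gene Slc2a1 (-0.34), Hk2 (7.92 to 7.20), Ldha (11.69 to 11.27) and Pdk1, which keeps pyruvate out of mitochondria (-1.48). The call of Slc2a1 was lost with arrays centred on their median (-0.271) and without array 1 of KY-2 (-0.264), arrays 1 and 2 of KY-1 (-0.368) or array 3 of KY-1 (-0.304). Pgam1 (0.89) and Pfkm (0.73) were higher. Idh2 and Me1, which supply NADPH, were higher by 1.92 and 1.17. Of 27 genes of amino acid transport and the ATF4 response 11 were lower and 4 higher (55.6% called, against 42.8% of genes above low signal), but the median was -0.23 with GFP and 0.036 with the Myb vector. The lower genes included Asns (10.86 to 10.19) and the glutamine transporter genes Slc1a5 (-0.79), Slc38a1 (-0.68) and Slc38a2 (-0.60), while Got1, a transaminase, was higher by 2.11. Phgdh and Fasn differed by -0.02 and 0.05 and were not called. Among nucleotide genes, Nt5e (CD73), which makes extracellular adenosine, was higher (6.13 to 7.86) and Upp1, uridine phosphorylase, lower (10.18 to 8.12). Mitochondrial ribosomal proteins were higher in 11 of 34 cases and lower in 1, and of the proteasome genes 6 of 27 were called, with the largest difference at 0.37.

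MicroRNA genes were examined because the study concerned microRNA-15/16, which binds Myb transcripts. The mature forms below share the seed (bases 2 to 8, in capitals) that pairs with targets (RefSeq, GRCm38.p6): miR-15a-5p and miR-16-5p from chr14:61632075-61632096 and chr14:61631936-61631957 on the minus strand, and miR-15b-5p from chr3:69009775-69009796 on the plus strand.
miR-15a-5p: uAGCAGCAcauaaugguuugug
miR-16-5p: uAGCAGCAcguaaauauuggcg
miR-15b-5p: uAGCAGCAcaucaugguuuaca
The probe set of Mir15a was at 7.74, 7.71 and 7.67 in KY-1 and at 6.75 and 6.69 in KY-2, 1.96-fold lower (-0.97 ± 0.14; limma adjusted p = 0.000309). Mir15b, Mir16-1 and Mir16-2 were dim in both lines, with differences of -0.78, -0.58 and -0.70 that were called lower, for Mir16-1 not without array 1 of KY-2 (-0.432) or arrays 1 and 2 of KY-1 (-0.396). The sources used here do not say which form of a microRNA a probe set reads, so these are levels of the probe sets. Of 300 microRNA genes 39 (13%) were lower and 1 was higher, but 205 of the 300 were dim in both lines, and dim genes as a whole leaned the same way (415 lower and 209 higher of 7936). With a further quantile normalization the count was 30 lower and 8 higher and the median moved from -0.11 to -0.02, so the size of this lean depends on the scaling.

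Differences were not spread evenly over the chromosomes. On chromosome 19, 53.7% of the 417 genes above low signal were higher in KY-2 and 5.52% lower. Chromosome 16 (44.2% and 7.14%), chromosome 10 (42.8% and 8.25%) and the X chromosome (32% and 8.31%) leaned the same way. Chromosomes 11 (32.1% and 16.7%) and 3 (31.4% and 12.7%) had shares higher like that of X but more genes lower. The opposite lean was seen on chromosome 15 (7.93% higher and 34% lower), chromosome 17 (7.59% and 31.7%), chromosome 7 (8.46% and 30.4%) and chromosome 18 (12.7% and 37.5%). The medians were 0.36 on chromosome 19, 0.25 on 16 and 0.24 on 10, against -0.025 for all genes above low signal. Under the alternative settings the median kept its sign on each of chromosomes 1 to 19 and X except chromosome 4 (-0.076 to 0.008). The chromosome medians with the Myb vector were 0.24, 0.28 and 0.19 for 19, 16 and 10.

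Chromosome 12 changed direction along its length. Ordered by position, the 94 genes above low signal from its start to Pik3cg had 74 higher and 1 lower in KY-2, with a median of 0.94 (quartiles 0.44 and 1.34). The 331 genes after Pik3cg had 22 higher and 130 lower, with a median of -0.23 (quartiles -0.52 and -0.01). The boundary was chosen after the values were seen. The first segment holds Mycn, Id2, Rrm2, the DNA methyltransferase gene Dnmt3a (1.77) and Dld. The next genes after Pik3cg (1.54) were Ccdc71l (-0.70, a call lost without arrays 1 and 2 of KY-1, at -0.483, and without array 2 of KY-2, at -0.65) and Nampt, the enzyme of NAD salvage (-1.73). On the Myb arrays the medians were 0.94 and -0.28.

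**Figure D4:**
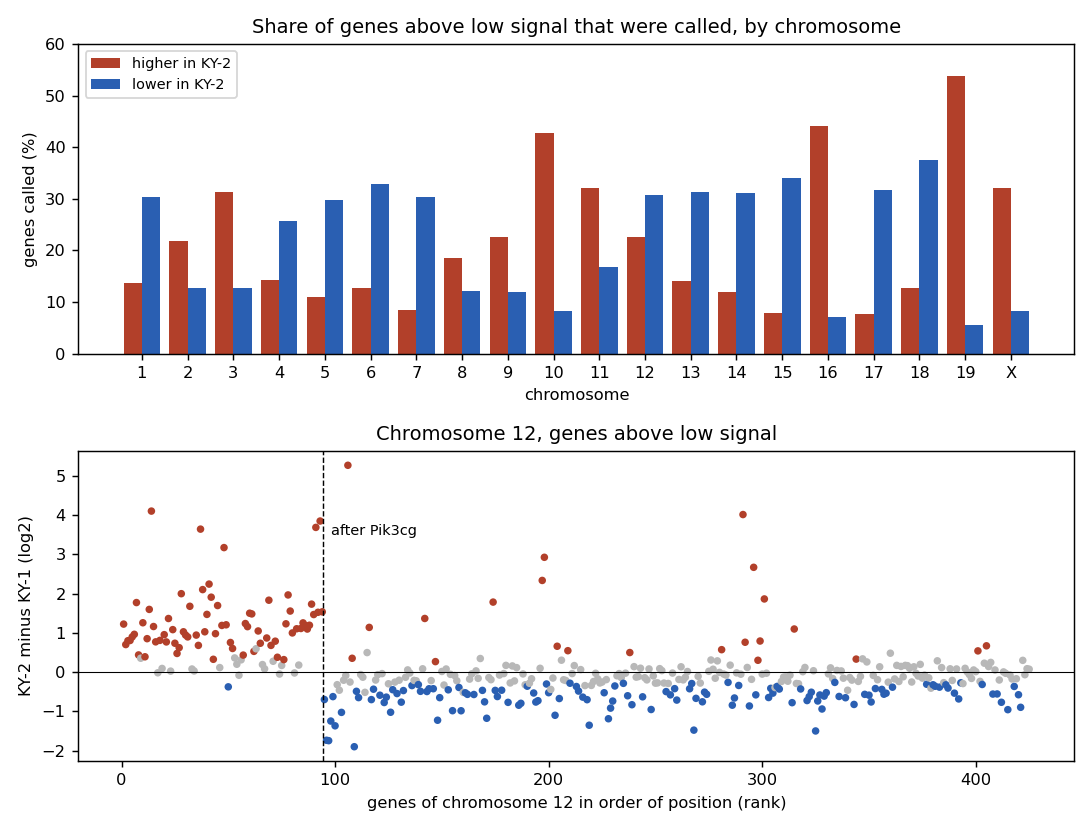
Upper panel, percent of genes above low signal called higher or lower in KY-2 with GFP on each chromosome; lower panel, line difference (log2) of each such gene of chromosome 12 in order of position, coloured by call. Chromosomes 10, 16 and 19 have the highest shares of higher genes, and chromosome 12 turns from mostly higher to mostly lower after Pik3cg.

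Neighbouring genes that moved together made 62 runs of at least 6 genes with differences over 0.3 in the same direction, 39 higher and 23 lower in KY-2. They held 490 genes, among them 8.09% of all called genes, and all 62 runs had a median of the same sign on the Myb arrays. The longest, with 16 genes, ran from Rab10os to Sf3b6 on chromosome 12. Several genes described above lay in such runs. Myc and its neighbour Pvt1 lay in a run of 7 lower genes on chromosome 15 (the call of Pvt1 was lost without array 3 of KY-1, at -0.417, and array 2 of KY-2, at -0.486), Lpl in 6 lower genes on chromosome 8, Tacr1 and Hk2 in 12 lower genes on chromosome 6, and Fasl in 6 lower genes on chromosome 1. Mdh1 lay in a run of 9 higher genes on chromosome 11, and Uqcr10 and Osm lay together in another of 12 higher genes there. In the NK gene complex on chromosome 6, the 9 genes from Clec12a to Klrc2, with Klre1, Klrd1, Klrk1 and Klrc3 among them, were all lower in KY-2, and the adjoining Klrc1 was higher. A run of 6 higher genes on the X chromosome held the lymphocyte receptor genes Cysltr1 (2.27), P2ry10 (0.98), P2ry10b (2.17) and Gpr174 (2.66) and Itm2a (2.35). Olfactory receptor genes were also high in KY-2 in local groups: Olfr801, Olfr802, Olfr803 and Olfr805 on chromosome 10 and Olfr1258 and Olfr1259 on chromosome 2 were higher by 3.16 to 4.09.

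The same line comparison was made on the 7 arrays with the Myb vector, which share no array with the GFP groups although they share the fit's estimate of spread. There 6305 genes (31.6%) were called between the lines. Of the 5757 genes called with GFP, 4530 (78.7%) were called in the same direction with the Myb vector, 9 in the opposite direction, and 96.8% had the same sign. Of the 295 called genes that differed at least 4-fold, 292 were called in the same direction. With each vector fitted alone, 5359 and 5843 genes were called, of which 4103 were shared in the same direction (76.6% and 70.2% of each list) and 7 were opposite.

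The line difference depended on the vector, by limma's interaction test, for 168 genes (0.843%), 141 of them among those called with GFP. Myb was the clearest. Cd36 differed by 3.94 with GFP and 1.66 with the Myb vector, Crtam by 3.38 and 1.39, Cd3g by 7.68 and 5.05, Ncr1 by -4.29 and -2.43, and Prf1 by 2.26 and 1.26. Nt5e and Zbtb32, higher in KY-2 with GFP, were not called with the Myb vector (-0.09 and 0.04). The difference grew with the Myb vector for Fads2 (2.81 to 4.06), Ifitm1 (1.86 to 3.31) and Gzmd (-2.30 to -3.66).

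**Figure D5:**
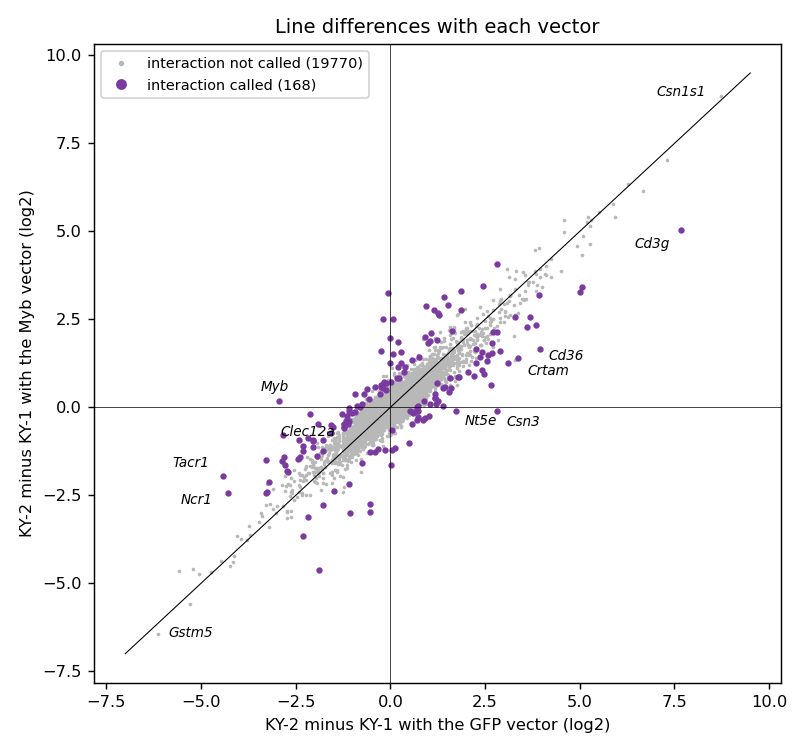
Line difference of each gene with the GFP vector (x axis) and with the Myb vector (y axis), both KY-2 minus KY-1 on the log2 scale; the diagonal marks equal differences and larger points are the 168 genes with a called interaction. Csn1s1 and Gstm5 lie near the diagonal, and Myb, Nt5e and Csn3 lie near 0 on the y axis.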

How the data were processed

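The deposited values are log2 expression levels per probe set from single-colour Affymetrix arrays, made with Partek and RMA per the submitters' processing notes. No version, option or filter is stated there. A single gene symbol was available for 21789 of 35556 probe sets, and the brightest probe set of a gene was used for the 999 genes with several. All 19938 genes were tested without a filter in limma 3.58.1 (R 4.3.3), as 1 model of the 4 group means with Benjamini-Hochberg adjustment over all genes at 0.05. The GFP groups had 2 replicates each after a close pair of KY-1 arrays was averaged, likewise in KY-1 with Myb. Errors are SE of the model, with 6 residual degrees of freedom. Replicate numbers were not used to pair the samples. Correlations of deviations between arrays of the same number were 0 and -0.001, but they cannot decide whether the numbers pair samples. The deviations of the 2 KY-2 arrays mirror each other, and arrays 1 and 2 of KY-1 lie close together. No slide or scan date was used. Gene order came from the RefSeq gene table of GRCm38.p6. The test was checked on simulated data with independent normal noise of the fitted spread. It found 12 of 50 added differences of 0.5 on the log2 scale, and 50 of 50 at each of 1, 2 and 4. Of 19738 unchanged genes 15 were called. Far fewer genes were changed there than were called in the data, so these rates need not hold for the real comparison. The simulation cannot show whether arrays of a group are technical repeats.

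The comparison, the 58 gene lists and the rules were chosen with earlier results of these data known. Genes named were the 15 highest and 15 lowest called genes above low signal (without predicted genes, olfactory receptors and small RNA genes), up to 5 called members of each list by p, a set of key genes, ends of lists and genes of runs. Csn1s2a, Csn3, Csn1s2b, Nkg7, Fcer1g, Fcgr3, Cd8b1, Cd4, Cd5, Cd2, Trat1, Lyz2, Mpo, S100a8, Ms4a1, Pax5, Eif2s3y, Kdm5d, Uty, Cxcl9, Cxcl10, Fadd, Tnfsf10, Gzmc, Esrra, Ppara, Pparg, the microRNA genes and the olfactory receptors were named after their values were seen.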

Additional observations from a re-analysis of the deposited data

Results flagged for a closer look

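For 33 of the genes named above, the difference between the lines was not the same with the 2 vectors by limma's interaction test (adjusted p from 3.842e-07 to 0.04658, over all 19938 genes). The values here are the line difference with GFP (KY-2 minus KY-1) minus the line difference with the Myb vector, on the log2 scale. The named genes were chosen largely by their difference with GFP, so that nothing is read from how many of them had the larger difference with that vector.

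Myb, which the second vector supplies, had the value -3.107. Among receptors the values were -1.858 for Ncr1, -2.467 for Tacr1, -1.939 for Clec12a, -0.91 for Clec1b, 1.989 for Crtam, 0.736 for Tigit, 0.824 for Cxcr3, -1.072 for Cxcr4, 2.023 for Gpr174 and 1.319 for Olfr802. Of the T cell genes, Cd3g had 2.63 and Cd3d 0.844, and both stayed higher in KY-2 with either vector. Surface molecules added -1.773 for Clec2i, -0.855 for Spn, 1.825 for Nt5e and 2.281 for Cd36.

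Effector genes gave 1.003 for Prf1, 0.704 for Gzma, 1.352 for Gzmd, 1.108 for Serpinb9b, 1.858 for Ccl5, 0.745 for Ccl4, 0.925 for Ccl1 and -0.622 for Tnf. Gzma was higher in KY-2 by 0.74 with GFP and by 0.03 with the Myb vector. Transcription factors gave 1.34 for Zbtb32, 1.042 for Egr1, -0.838 for Ikzf2 and -0.832 for Rora. Metabolic and other genes gave -1.252 for Fads2, 0.795 for Me1, -1.452 for Ifitm1 and 2.933 for Csn3. The cause of these differences was not tested.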

How the results depend on the processing

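Of 242 named genes 210 were called; 192 stayed called in all 21 alternative settings, 3 dim genes in the 20 in which they were tested, 15 were lost in at least 1, none changed direction, and 6 that were not called were called in some setting. Requiring a 2-fold difference left 650 genes higher, 422 lower and 1049 shared with the Myb vector. Leaving out each replicate in turn gave 1956 to 2758 higher, 2123 to 3067 lower and 3531 to 4325 shared genes; a lone sample was assumed to vary like the other groups. With the replicate block (replicate number as a block, 12 separate arrays) 2778 were higher and 3432 lower, 4564 were shared, and 96% of calls were kept. Whether the numbers pair samples could not be decided from the correlations of deviations (0 and -0.001), for the reason given above. Median centring moved the median of all genes from -0.039 to 0.026 and a second quantile normalization to 0.039. Values for chromosomes, energy genes, microRNA genes and chromosome 12 under these settings were added after seeing the data: chromosome 4 changed the sign of its median (-0.076 to 0.008), while the chromosome 12 segments gave 0.908 to 1.01 and -0.242 to -0.165. Dim genes limit the comparison, since 7936 of 19938 genes were dim in both lines.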
